A study of Mus musculus with 8 samples.

Results

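The 4 enzyme families described here carry out much of the chemistry by which animals inactivate foreign compounds, and they were measured as 144 genes among the 35963 gene symbols of a transcript count table. A gene was a member when its symbol began as a cytochrome P450 of families 1 to 4 (Cyp, 85 genes), a UDP-glucuronosyltransferase of family 1 or 2 (Ugt, 18 genes), a cytosolic sulfotransferase of families 1 to 6 (Sult, 21 genes) or a glutathione S-transferase of the alpha, kappa, mu, omega, pi or theta class (Gst, 20 genes). The rule used the symbol alone, but it was chosen with earlier results of these data known. Epithelial cells were released from the flushed proximal colon of mice aged 4 weeks, and their RNA was sequenced in 8 libraries. The 4 libraries called control here came from Ccna2 fl/fl mice, in which both copies of the cyclin A2 gene are flanked by Cre target sites and no Cre is present, and the labels also call them WT. The 4 Ccna2-KO libraries came from Ccna2 fl/fl vil-Cre mice. The villin promoter drives Cre in the epithelium of the small and large intestine, so cells of the lamina propria or lymphocytes carried over in an isolate would keep the gene. The labels do not say whether the libraries of a group came from separate mice, and a p-value here weighs a difference against the scatter of the deposited libraries only. The sex of the mice is not given. Xist was listed at 0 to 0.273 CPM and the Y-linked gene Ddx3y at 49.4 to 83.6 CPM over all 8 libraries, in libraries of both groups alike.

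Phase I enzymes such as the P450s, which are heme proteins of the endoplasmic reticulum fed with electrons by the reductase Por, add or expose a reactive group on a lipophilic compound. Phase II enzymes then join a polar group to it: Ugt enzymes transfer glucuronic acid, Sult enzymes transfer sulfate, and Gst enzymes transfer glutathione. Many members also act on the body's own steroids, fatty acids, bile acids and eicosanoids, and the intestinal epithelium is an early site of contact with compounds taken in with food or made by bacteria. Several are known targets of the receptors Ahr, Nr1i2 (PXR) and Nr1i3 (CAR) or of the transcription factor Nfe2l2 (NRF2).

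Levels are given as CPM, the count relative to the library's trimmed-mean (TMM) effective size, and libraries held 27162083 to 34386731 estimated counts. Of the 144 members, 72 passed edgeR's filter on low counts and were tested. Another 29 had no count in any library, and the remaining 43 had at most 94 counts over all 8 libraries together. In 1 library, 3 counts correspond to 0.0899 to 0.12 CPM, which is the limit that a count of 0 allows. Read-sharing between near-identical copies matters in these families: an estimated count of a member is uncertain where much of its transcript is also in another member. The share of a member's 31-base words found in other members is given where it bears on a value. Among called members it was 7.5% in Cyp4b1, 9.7% in Cyp4f13, 0.7% in Gsta3 and 3.0% in Gstm4. Among the uncalled members described, it was also above 20% in Cyp2c65 (33.9%), Cyp2d34 (25.2%), Cyp3a11 (32.4%), Cyp4f16 (36.5%), Ugt1a1 (58.5%) and Ugt1a7c (41.9%). Together the members made up 0.834% to 1.08% of all counts.

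In the Ccna2-KO libraries the members did not move one way. The largest rises were in the sulfotransferase Sult4a1, the alpha-class transferase Gsta3 and the P450 Cyp2d9. The largest falls were in Cyp3a44, Cyp3a25, the vitamin D 25-hydroxylase Cyp2r1, the fatty acid hydroxylase Cyp4b1 and the sulfotransferase Sult1c2. With edgeR's quasi-likelihood test and Benjamini-Hochberg adjustment over all 15893 genes tested, 7 of the 72 tested members were higher and 10 were lower at an adjusted p under 0.05. That is 9.72% higher, against 6.4% of all genes tested, and 13.9% lower, against 5.71%. In either direction it is 23.6% of the tested members, against 12.1% of all genes. The 4 values of one group did not overlap the 4 of the other in 22 members (30.6%), against 19.0% of all genes. The median log2 fold change was -0.04 over the tested members and -0.02 over all genes. Of the 72, 7 passed the filter on low counts in every library of only 1 group, and 4 of these were among the 17 called (Sult4a1, Cyp2r1, Cyp3a25 and Cyp3a44); they entered the test only through the group in which they were high, so their calls are no support for these shares. Fitted on single transcripts in place of gene totals, where 0.93% of 38384 transcripts passed, 6 of the 17 called members had a transcript that passed (Cyp2d9, Cyp2s1, Cyp4b1, Gstp2, Sult1a1 and Sult1c2), and the other 11 did not. Without control replicate 1 the same test called 16 members higher and 17 lower, among them all 17 already called, but it then also called 28.5% of all genes.

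Summed over its members, the Sult family separated the groups and the other families did not. The Sult sum was 1192, 1199, 1118 and 1125 CPM in control replicates 1 to 4 and 835, 838, 720 and 816 CPM in Ccna2-KO replicates 1 to 4, and every control library lay above every Ccna2-KO library. The mean was 1159 ± 43 CPM in control and 802 ± 56 in Ccna2-KO (SD, n = 4), a log2 ratio of -0.53. The Gst sum ran the other way, with 1307 ± 194 CPM in control and 1621 ± 176 in Ccna2-KO (SD, n = 4). It overlapped between groups only because control replicate 1, at 1592 CPM, lay above Ccna2-KO replicate 4, at 1419 CPM. The remaining controls lay at 1176 to 1267 CPM, below the Ccna2-KO range of 1419 to 1846 CPM. The Cyp sum was 5589 ± 1124 CPM in control and 6322 ± 347 in Ccna2-KO, and the Ugt sum 1692 ± 313 and 1489 ± 112 (SD, n = 4). Both overlapped, and control replicate 1 was the lowest library in each, at 3989 CPM for Cyp and 1253 CPM for Ugt. One gene, Cyp2c55, supplied 62.6% of the Cyp sum. These sums are descriptions of chosen lists and carry no test.

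**Figure D1:**
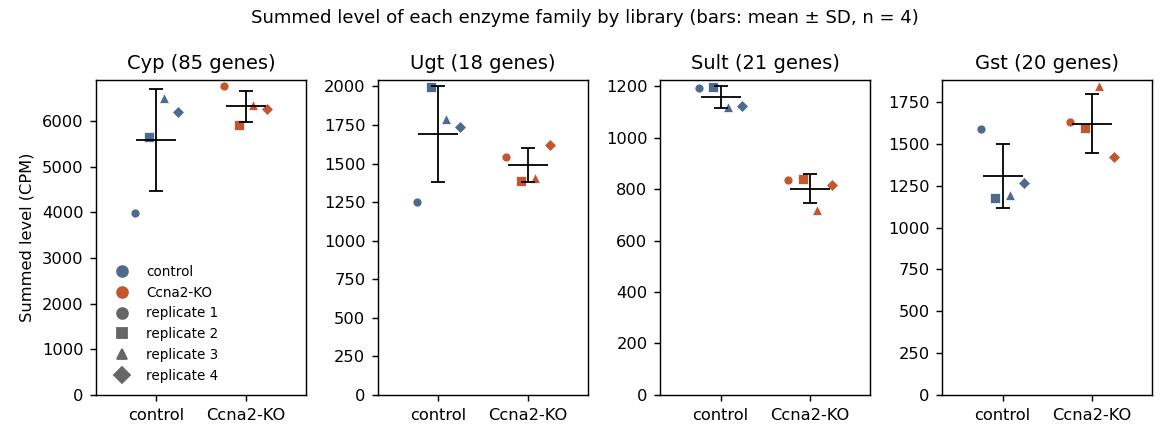
Summed level in CPM (y axis, from 0) of all members of each family in each library. Points are libraries, coloured by group and shaped by replicate number, and black bars give the mean ± SD of 4 libraries. The Sult points of the groups do not overlap, with control at 1118 to 1199 CPM and Ccna2-KO at 720 to 838 CPM.

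The labels also carry a number for each library, and these numbers fall into a low set (control replicates 2 to 4 and Ccna2-KO replicate 4) and a high set (control replicate 1 and Ccna2-KO replicates 1 to 3). Their meaning is not stated, and each set holds 1 library of one group only, so a comparison within a set has no replicate. Control replicate 1 is the only control of the high set, so a fit without it holds no high-set control. Group and set are then largely confounded, which limits every value given here without control replicate 1. In several genes the high-set control was the highest control and the low-set Ccna2-KO library the lowest of its group. Among them were the called Gsta3, Gstm4 and Gstp2, the uncalled Gstm1 and Gstp1, and the pathway genes Ephx1, Gusb and Abcc4. The called Gsta1 did not have this order. With a term for the set, 8 members were higher and 13 lower, against 18.2% of all genes called in either direction, and 16 of the 17 called members were called again. Gsta1 was the exception (adjusted p = 0.0585, edgeR), and the change of Gsta3 was 1.55 with the term.

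Several features of the libraries move with the groups or with control replicate 1 and stand beside every result that follows. Ccna2 itself was at 54.3, 25.9, 11.9 and 18.3 CPM in control and 18.2, 26.6, 26.6 and 16.2 CPM in Ccna2-KO, with overlapping groups, and the deposited gene totals hold no exon-level check of the deletion, so the group labels are taken as given. Colonocyte markers were present in all libraries, with sums of 22464 to 31826 CPM in control and 30849 to 36379 CPM in Ccna2-KO, and 0 of 11 tested were called by edgeR, with 4 at an unadjusted p under 0.05. Markers of cycling cells (3 of 8 higher) summed to 610 to 916 CPM in Ccna2-KO, against 539 CPM for control replicate 1 and 246 to 277 CPM for the remaining controls. Markers of deep crypt secretory and Paneth-like cells ran from 22.1 to 51.1 CPM in control and 57.8 to 204 CPM in Ccna2-KO (6 of 7 tested higher). Of the small intestinal enterocyte markers, 5 of 11 tested were higher, and their sums overlapped, with 957 to 1262 CPM in control and 1107 to 1494 CPM in Ccna2-KO. T cell markers (8 of 8 tested lower) summed to 30.1 to 146 CPM in control and 7.1 to 16.9 CPM in Ccna2-KO. Enteroendocrine markers (4 of 9 lower) summed to 174 to 279 CPM in control and 49.5 to 69.8 CPM in Ccna2-KO, and tuft cell markers (3 of 7 tested lower) to 13.2 to 25.8 CPM and 9.8 to 12.2 CPM. Of 9 hepatocyte markers Fga and Fgb were at 0 in all libraries, Tat made up 94.0% of their sum, and Cps1 was higher (log2 change 1.54; adjusted p = 0.0468, edgeR). Crypt stem cell markers summed to 76.6 to 115 CPM in control and 89.8 to 95.8 CPM in Ccna2-KO, and of 5 tested Lgr5 (-2.44) and Smoc2 (-2.64) were lower and Axin2 (0.84) higher on the log2 scale. Goblet cell markers were highest in control replicate 1, at 18185 CPM, while the remaining controls lay at 8271 to 12968 CPM and Ccna2-KO at 8498 to 13828 CPM. Of 9 tested, 1 was called, Retnlb, which was higher (log2 change 2.51, adjusted p = 0.0362, edgeR). Bulk RNA cannot tell fewer cells of a type from less RNA per cell, and the part of these cell types in the results for the members was not tested.

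The P450s were led by Cyp2c55, which hydroxylates arachidonic acid. Its level was 2234, 3425, 4040.0 and 4407 CPM in control and 4381, 3777, 4157 and 3398 CPM in Ccna2-KO. The groups overlapped and control replicate 1 was the lowest of all 8 libraries. The fitted log2 fold change was 0.16 ± 0.20 (SE), with an edgeR adjusted p of 0.69. Per kilobase of transcript, it stood at 1868 CPM, the mean of 8 libraries, and the next P450s on that per-length scale were Cyp2c65 at 233, Cyp2d34 at 189 and the leukotriene hydroxylase Cyp4f14 at 145. Over all 4 families Cyp2c55 was highest per kilobase in each group, at 1768 CPM in control and 1969 in Ccna2-KO. The next levels on that scale were Gsto1 at 324 and Gstp1 at 309 in control, and Gstp1 at 385 and Gsto1 at 289.6 in Ccna2-KO. Between the groups, 0 of the 6 tested Cyp2c members passed edgeR's test, against 12.1% of all genes. Of the 6, 0 had an unadjusted p under 0.05, and DESeq2 and limma voom also called 0. Without control replicate 1 edgeR called Cyp2c44 higher, at 1.72 (adjusted p = 0.0296) against 0.88 ± 0.59 with all libraries. With the library number set term Cyp2c44 was at 0.57 (adjusted p = 0.52, edgeR).

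The classic inducible P450s were near or at the detection limit. Cyp1a1, the best known Ahr target, had 0 counts in all 8 libraries, and Cyp1a2 and Cyp1b1 had 1 count each over all libraries. Cyp2b10, the textbook target of Nr1i3, had 5 counts over the 4 control and 10 over the 4 Ccna2-KO libraries. Cyp3a11, the main CYP3A enzyme of mouse liver, had 14 and 6 counts. None of these 5 genes passed edgeR's filter on low counts. DESeq2 gave Cyp3a11 a log2 change of -1.17 ± 0.98 with an adjusted p of 0.536.

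Among the P450s that rose, Cyp2s1 was the most abundant. Cyp2s1 is an epithelial P450 outside the liver that acts on retinoids and prostaglandin intermediates. Its level was 178, 213, 209 and 168 CPM in control replicates 1 to 4 and 348, 350.5, 359.6 and 451 CPM in Ccna2-KO replicates 1 to 4. The groups did not overlap, and Ccna2-KO replicate 4 was the highest. The fitted change was 0.98 ± 0.13 (log2, SE), or 1.97-fold higher, with an edgeR adjusted p of 0.00229. It shares no 31-base word with any other member, so its estimate does not depend on how reads were divided within the family. The gene lies at chr7:25802469-25816525 (GRCm38).

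Cyp2d9 encodes a steroid 16-alpha-hydroxylase known for its male-biased level in mouse liver. It was at 22.1, 24.1, 48.8 and 14.7 CPM in control and 109.9, 98.6, 96.6 and 110.0 CPM in Ccna2-KO. The control libraries spread more than 3-fold and all lay below the tightly placed Ccna2-KO libraries. The fitted change was 1.92 ± 0.31 (log2, SE), with an edgeR adjusted p of 0.00561. Cyp2d9 is 1 of 10 members in a cluster at chr15:82370527-82794452 (GRCm38), and 45% of its 31-base words occur in other members. When its counts were summed with those of Cyp2d10, Cyp2d11 and Cyp2d12, an alternative chosen after seeing the data, the change was 1.17 ± 0.30 (log2, SE) with an adjusted p of 0.0333. Of the 9 cluster members tested, Cyp2d9 alone passed the test, and 8 of the 9 fitted values lay above 0. Its abundant neighbour Cyp2d34 ranged over 205 to 415 CPM in control and 254 to 518 CPM in Ccna2-KO, with a log2 fold change of 0.24 ± 0.27.

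The falls among the P450s included 3 genes of very low level. Cyp3a44 and Cyp3a25 are CYP3A enzymes best known from liver. Cyp3a44 was at 1.36, 0.479, 3.11 and 2.97 CPM in control and 0.0340, 0.120, 0.187 and 0.157 CPM in Ccna2-KO, from 250 counts in 4 libraries and 15 counts in 4 libraries. Most Ccna2-KO values were close to what 3 counts give, and control replicate 2 was the lowest control. The fitted change was -3.96 ± 0.67 (log2, SE) with an edgeR adjusted p of 0.00633. Cyp3a25 was at 1.25, 0.559, 2.18 and 2.12 CPM in control and 0.202, 0.360, 0.218 and 0.196 CPM in Ccna2-KO, and control replicate 2 was again the lowest control. Its fitted change was -2.62 ± 0.46 (adjusted p = 0.0075, edgeR). Other members hold 37.9% of the 31-base words of Cyp3a44 and 46.8% of those of Cyp3a25. With Cyp3a11, Cyp3a41a and Cyp3a41b added to Cyp3a44 the change was -3.56 ± 0.62 (adjusted p = 0.00718, edgeR), and with Cyp3a59 added to Cyp3a25 it was -1.92 ± 0.37 (adjusted p = 0.0109, edgeR). Cyp3a13, which made up 98.8% of the Cyp3 sum and is the main CYP3A gene of mouse intestine, was at 172, 265, 272 and 175 CPM in control and 147, 161, 121 and 186 CPM in Ccna2-KO. Those groups overlapped, and the change of -0.52 ± 0.20 did not pass the test (edgeR adjusted p = 0.122). Without control replicate 1 it was -0.62, with an adjusted p of 0.0295. With the library number set term the change of Cyp3a13 was -0.31 (adjusted p = 0.24, edgeR).

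Cyp2r1 makes 25-hydroxyvitamin D. It was at 1.22, 0.798, 0.861 and 1.09 CPM in control and 0.101, 0.270, 0.281 and 0.235 CPM in Ccna2-KO, with 119 counts in the 4 control and 27 in the 4 Ccna2-KO libraries. All control libraries lay above all Ccna2-KO libraries, and the change was -2.14 ± 0.33 (log2, SE; edgeR adjusted p = 0.00436). It shares no 31-base word with another member.

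CYP4 enzymes hydroxylate fatty acids and eicosanoids at or near the end of the chain. Of 9 tested, 3 were lower (33.3%, against 5.71% of all genes) and 0 higher (against 6.4%). Cyp4b1, a fatty acid hydroxylase that also activates plant and fungal toxins, was at 35.6, 40.7, 60.5 and 48.0 CPM in control and 15.8, 12.3, 7.08 and 10.3 CPM in Ccna2-KO. The lowest control was more than 2-fold above the highest Ccna2-KO library. The fitted value was -2.02 ± 0.25 (log2, SE), or 4.07-fold lower, with an edgeR adjusted p of 0.00176. Cyp4v3, a hydroxylase of medium-chain fatty acids, was at 7.98, 10.1, 8.55 and 8.03 CPM in control and 5.12, 4.83, 3.53 and 4.59 CPM in Ccna2-KO. Its groups were apart, at -0.94 ± 0.17 (adjusted p = 0.00795, edgeR). Cyp4f13 was at 71.9, 77.4, 76.8 and 66.6 CPM in control and 50.8, 47.2, 45.4 and 52.4 CPM in Ccna2-KO. It had the smallest fitted change and the smallest SE of the 17 called members, at -0.58 ± 0.09 (adjusted p = 0.00483, edgeR).

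Within the same Cyp4f cluster on chromosome 17 the members differed in sign. Cyp4f14, the most abundant CYP4 gene and a leukotriene B4 hydroxylase, was at 179.7, 299, 300.2 and 193 CPM in control and 378, 337, 307 and 563 CPM in Ccna2-KO. The groups did not overlap, though control replicates 2 and 3 came close to Ccna2-KO replicate 3, and the change of 0.71 ± 0.24 missed the threshold (edgeR adjusted p = 0.091). It passed with the library number set as a term of the fit, at 1.01 (adjusted p = 0.00397, edgeR). Cyp4f16 also had groups that did not overlap, with 64.8 to 84.3 CPM in control and 52.7 to 61.0 CPM in Ccna2-KO, and its change of -0.39 ± 0.11 had an edgeR adjusted p of 0.0539. The adjusted p of Cyp4f16 was 0.0408 with the set term, 0.0348 without control replicate 1 (both edgeR) and 0.0263 with DESeq2. Of the 7 members tested in the cluster, 3 fitted values lay above 0 and 4 below, so the neighbours did not share a sign. In the Cyp2j cluster on chromosome 4, which holds epoxygenases of arachidonic acid, all 4 tested members had fitted values below 0, from -0.65 to -0.21. In that cluster edgeR called 0, against 12.1% of all genes, with 1 at an unadjusted p under 0.05, and DESeq2 and limma voom called 0. The sign was not stable for Cyp2j5, which was at 0.85 with the library number set term (adjusted p = 0.404, edgeR) and at -0.67 without control replicate 1 (adjusted p = 0.034, edgeR).

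Of the 7 sulfotransferases tested, 1 was higher and 3 were lower (57.1%, against 12.1% of all genes). The higher one, Sult4a1, entered the test only through the group in which it was high. All 3 that fell belong to the Sult1 family of phenol and amine sulfotransferases, and none of them shares a 31-base word with another member. Sult1c2 was at 64.0, 36.6, 41.9 and 56.3 CPM in control and 11.7, 15.6, 13.9 and 11.2 CPM in Ccna2-KO. Every control was more than 2-fold above every Ccna2-KO library, and the change was -1.92 ± 0.20 (log2, SE), 3.79-fold lower, with an edgeR adjusted p of 0.00064. Sult1a1, the main phenol sulfotransferase, was at 429, 275, 269.6 and 317 CPM in control and 156, 199, 122 and 155 CPM in Ccna2-KO. Control replicate 1 was the highest, and the highest Ccna2-KO library stayed below the lowest control. The change was -1.03 ± 0.19 (adjusted p = 0.00943, edgeR). Sult1d1, which sulfates catecholamines and eicosanoids, was at 425, 630.1, 544 and 549 CPM in control and 356, 333, 303 and 347 CPM in Ccna2-KO. Here control replicate 1 was the lowest control and still lay above all Ccna2-KO libraries, and the change was -0.68 ± 0.13 (adjusted p = 0.0116, edgeR). With the replicate number as a block the adjusted p of Sult1d1 was 0.0602.

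Sult1b1, a sulfotransferase of thyroid hormones and phenols next to Sult1d1 on chromosome 5, differed in sign from it. Its level was 213, 197, 208 and 159 CPM in control and 250.5, 237, 219.9 and 230.5 CPM in Ccna2-KO. The groups did not overlap, but the change of 0.27 ± 0.12 did not pass the test (edgeR adjusted p = 0.172). Outside Sult1, Sult2b1, a sulfotransferase of cholesterol and pregnenolone, ranged over 43.0 to 60.4 CPM in control and 47.0 to 67.1 CPM in Ccna2-KO, with a change of 0.04 ± 0.14.

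Sult4a1, an orphan family member best known from neurons, had the smallest p-value of all members. Its level was 0.209, 0.399, 0.461 and 0.454 CPM in control and 7.18, 5.28, 5.93 and 3.61 CPM in Ccna2-KO, from 46 and 671 counts in the 4 libraries of each group. The lowest Ccna2-KO library was more than 7-fold above the highest control. The fitted change was 3.83 ± 0.32 (log2, SE), or 14.2-fold higher, with an edgeR adjusted p of 0.000231. Of its counts, 90.2% were assigned to a predicted transcript model and not to the curated one, so which part of the locus at chr15:84076097-84105754 (GRCm38) is transcribed is not resolved by these gene totals.

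**Figure D2:**
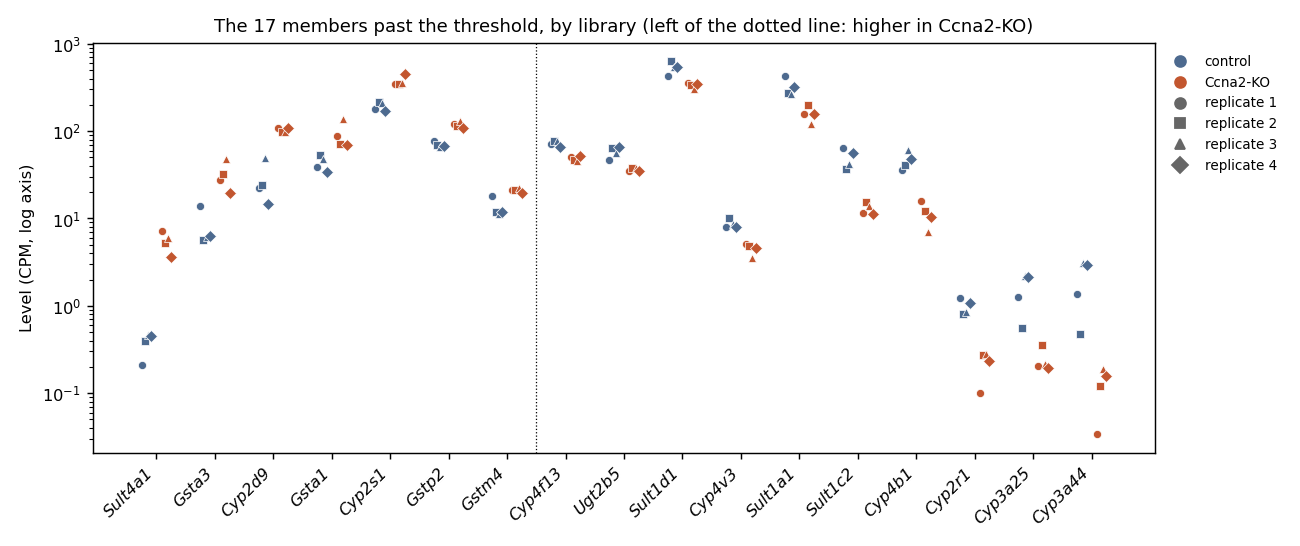
Level in CPM (y axis, log scale) of the 17 called members in each library, with 4 control points in blue and 4 Ccna2-KO points in red a gene and marker shape for the replicate number. The 7 genes left of the dotted line were higher in Ccna2-KO and the 10 to the right lower. The groups do not overlap in any of the 17.

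Of 18 tested glutathione S-transferases edgeR called 4 (22.2%, against 12.1% of all genes), all higher in Ccna2-KO. It called 0 lower, against 5.71% of all genes, with 1 lower at an unadjusted p under 0.05. DESeq2 called 6 higher and 0 lower, and limma voom 4 and 0. With the library number set term edgeR called 4 higher and 1, Gstm2, lower, against 18.2% of all genes called. Without control replicate 1 it called 12 higher and 0 lower, but 28.5% of all genes were called in that fit. Gsta3, an alpha-class enzyme that conjugates the epoxide of aflatoxin, was at 13.8, 5.71, 6.21 and 6.33 CPM in control and 27.9, 32.6, 48.5 and 19.7 CPM in Ccna2-KO. Control replicate 1 was more than 2-fold above the other controls and still below every Ccna2-KO library. The change was 2.01 ± 0.35 (log2, SE), 4.02-fold higher, with an edgeR adjusted p of 0.00727. Gsta1 was at 38.9, 53.0, 48.4 and 34.3 CPM in control and 87.3, 70.3, 139 and 69.7 CPM in Ccna2-KO, with Ccna2-KO replicate 3 the highest. Its change was 1.07 ± 0.24 (adjusted p = 0.0198, edgeR), and its adjusted p was 0.0604 without control replicate 4. Other members, of which the nearly silent Gsta2 (7 and 21 counts) shares most, hold 55.5% of its 31-base words. Summed with Gsta2 its change was 1.07 ± 0.24 (adjusted p = 0.0197, edgeR). Gsta4, which conjugates lipid peroxidation products, ranged over 38.7 to 58.7 CPM in control and 30.04 to 74.0 CPM in Ccna2-KO and overlapped, with a change of 0.18 ± 0.26, which was -0.23 with the set term.

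The pi-class genes Gstp1 and Gstp2 are neighbouring copies on chromosome 19. Gstp2 was at 78.1, 69.7, 65.8 and 67.9 CPM in control and 120.4, 116, 130.4 and 109.7 CPM in Ccna2-KO, with groups apart and a change of 0.76 ± 0.10 (log2, SE; edgeR adjusted p = 0.00187). Gstp1 was at 271, 230.0, 252 and 262 CPM in control and 305, 306, 354 and 300.1 CPM in Ccna2-KO. Its groups did not overlap either, but the change of 0.32 ± 0.10 had an edgeR adjusted p of 0.0809. It was 0.0224 without control replicate 1 and 0.099 with the library number set term (both edgeR), and 0.0255 with DESeq2. Since 67.5% of the 31-base words of Gstp1 and 69.6% of those of Gstp2 are shared, the division of reads between them is uncertain. The summed pair rose by 0.42 ± 0.10 on the log2 scale (adjusted p = 0.028, edgeR).

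The promoters of the Gstp pair are shown because the pair is similar there. Gsta3 is shown because it alone matched TGACNNNGC among the 16 called members with a promoter entry. That was the only form of the antioxidant response element core searched, so sites of other forms were not counted. Promoter sequences were matched by symbol in RefSeq (GRCm38.p6), where 118 of the 144 members had an entry, and only the 250 bases upstream of the annotated start were searched, on both strands. Over 235 aligned bases the upstream regions of Gstp1 and Gstp2 agreed at 208 (88.5%). Each stretch below is written 5′ to 3′ on the strand of the gene, which is the minus strand for the Gstp pair (Gstp1 at chr19:4037950-4038026, Gstp2 at chr19:4042274-4042350) and the plus strand for Gsta3 (chr1:21240434-21240502). Capitals mark an AP-1 element, TGAGTCA, in the Gstp pair and a match to the antioxidant response element core, TGACNNNGC, in Gsta3.
Gstp1: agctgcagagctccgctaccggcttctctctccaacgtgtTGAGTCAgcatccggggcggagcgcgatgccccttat
Gstp2: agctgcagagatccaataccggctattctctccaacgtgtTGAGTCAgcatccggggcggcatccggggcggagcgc
Gsta3: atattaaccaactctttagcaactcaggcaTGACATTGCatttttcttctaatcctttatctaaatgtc
The capitals begin 74 bases upstream of the start in Gstp1, 89 in Gstp2 and 121 in Gsta3. The AP-1 element was present in 11 of the 118 members and in 4.46% of all 32851 RefSeq promoter windows of this length. The antioxidant core was present in 5 of the 118 members (Cyp4f14, Cyp4f18, Gsta3, Gstm5 and Gstm7) and in 10.2% of all windows. The xenobiotic response element core bound by Ahr, GCGTG, was present in 20 of the 118, among them Cyp1a1, Gstm1, Gstp1 and, of the called members, Cyp4v3 and Sult1d1, and in 28.2% of all windows. Of the 6 higher members with an entry, 1 held the antioxidant core and 0 the xenobiotic core. These are matches of letters in a short window and not measured binding.

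The 7 mu-class genes form 1 cluster at chr3:107895854-108045179 (GRCm38), and 6 of their 7 fitted values lay above 0. Gstm4 was the member that passed the test, at 17.9, 11.9, 11.3 and 11.7 CPM in control and 21.4, 21.0, 22.3 and 19.6 CPM in Ccna2-KO. The groups did not overlap, although control replicate 1 was well above the other controls. The change was 0.67 ± 0.16 (log2, SE; edgeR adjusted p = 0.0262), and its adjusted p was between 0.0573 and 0.0801 under 7 alternatives, which were the replicate block and the removal of any 1 library other than control replicate 1 or Ccna2-KO replicate 4. Gstm1, the most abundant of the cluster, was at 237, 107, 124 and 129 CPM in control and 289, 295, 348 and 183 CPM in Ccna2-KO. The groups overlapped only because control replicate 1 lay above Ccna2-KO replicate 4, and the change of 0.90 ± 0.28 missed the threshold (edgeR adjusted p = 0.0627). Without control replicate 1 the change was 1.22 with an adjusted p of 0.00216, and with the library number set term 0.50 with an adjusted p of 0.0155. Gstm2 had a fitted value of -0.53 ± 0.26, below 0, with 46.8 to 108 CPM in control and 41.8 to 47.3 CPM in Ccna2-KO. It was lower with the set term, at -0.74 (adjusted p = 0.027, edgeR), and Gstm6 was then at -0.0086. Without control replicate 1 Gstm2 was at -0.13 (adjusted p = 0.232, edgeR), and the other 6 mu-class genes were all higher. That fit called 28.5% of all genes.

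In the omega, kappa and theta classes edgeR called 0 of 6 tested, against 12.1% of all genes. At an unadjusted p under 0.05 there was 1, and DESeq2 and limma voom called 0. Gsto1, which reduces dehydroascorbate and removes glutathione from proteins, ranged over 349 to 421 CPM in control and 324 to 355 CPM in Ccna2-KO, with a change of -0.16 ± 0.10. Gstk1, of mitochondria and peroxisomes, ranged over 66.4 to 92.7 CPM in control and 66.4 to 77.4 CPM in Ccna2-KO, with a change of -0.05 ± 0.12. Gstt3, the highest theta-class gene, ranged over 50.2 to 72.2 CPM in control and 64.4 to 68.3 CPM in Ccna2-KO, with a change of 0.16 ± 0.11. Without control replicate 1 the change of Gstt3 was 0.27, with an edgeR adjusted p of 0.027, and that of Gstt2 was 0.73, with an edgeR adjusted p of 0.00137, against 0.44 ± 0.22 with all libraries. That fit called 28.5% of all genes. With the library number set term Gstt3 was at 0.08 (adjusted p = 0.626, edgeR) and Gstt2 at 0.19 (adjusted p = 0.37, edgeR). The groups overlapped in Gsto1, Gstk1 and Gstt3.

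Among the glucuronosyltransferases 1 of 10 tested members (10.0%, against 12.1% of all genes) passed edgeR's test and was lower. Ugt2b5, which acts on steroids and phenols, was at 46.5, 63.5, 56.3 and 65.3 CPM in control and 35.0, 37.4, 37.5 and 35.1 CPM in Ccna2-KO, with a narrow Ccna2-KO group below every control. Its change was -0.68 ± 0.12 (log2, SE; edgeR adjusted p = 0.00698). Other members hold 55.8% of its 31-base words, and summed with Ugt2b37 and Ugt2b38 the change was -0.68 ± 0.12 (adjusted p = 0.00691, edgeR). Ugt2b35, close by on chromosome 5, had groups that did not overlap, with 22.2 to 34.3 CPM in control and 15.9 to 19.6 CPM in Ccna2-KO, at -0.51 ± 0.15 (adjusted p = 0.0602, edgeR). Its adjusted p was 0.022 with the set term, 0.0257 without control replicate 1 (both edgeR) and 0.0312 with DESeq2. Ugt2b34, the most abundant Ugt, ranged over 525 to 794 CPM in control and 595 to 749 CPM in Ccna2-KO and overlapped, with -0.04 ± 0.15. Together with Sult1b1 and Sult1d1 these genes lie at chr5:86889770-87591611 (GRCm38), where 5 of 6 tested members had fitted values below 0 (4 of 6 with the set term) and 2 passed the test.

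The Ugt1a locus at chr1:88055411-88220002 (GRCm38) makes its enzymes from alternative first exons joined to a shared set of later exons, so its members share a large part of every transcript. Ugt1a1, the bilirubin transferase, was at 66.5, 166, 159 and 146 CPM in control and 100.6, 97.4, 111 and 90.7 CPM in Ccna2-KO. Control replicate 1 lay below every other library and made the groups overlap, and the change was -0.43 ± 0.25 (edgeR adjusted p = 0.319). Without that library it was -0.65, with an adjusted p of 0.00106. With the library number set term the change of Ugt1a1 was -0.08 (adjusted p = 0.874, edgeR). Ugt1a7c, the most abundant of the locus, was at 398, 572, 502 and 556 CPM in control and 429.9, 279.6, 308 and 426 CPM in Ccna2-KO, overlapping between groups at -0.49 ± 0.18 (edgeR adjusted p = 0.114), or 0.0221 without control replicate 1. With the set term Ugt1a7c was at -0.29 (adjusted p = 0.222, edgeR). Summed over the 8 members of the locus the change was -0.26 ± 0.17 (adjusted p = 0.367, edgeR).

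Ugt1a6a and Ugt1a6b, singled out after their values were seen, differed between libraries in a way that did not follow the groups. Both encode transferases of planar phenols. Ugt1a6b was at 32.6, 2.87, 1.32 and 3.73 CPM in control and 1.85, 158, 162 and 2.23 CPM in Ccna2-KO, so that 2 Ccna2-KO libraries and, to a lesser degree, control replicate 1 stood far above the other 5. Ugt1a6a was at 141, 362, 311 and 274 CPM in control and 298, 163, 167 and 286 CPM in Ccna2-KO, lowest in those same 3 libraries. The sum of the pair was 173, 364, 312 and 278 CPM in control and 299.7, 321, 328 and 288 CPM in Ccna2-KO, with a change of 0.13 ± 0.20 (adjusted p = 0.732, edgeR). The copies share 85.1% of their 31-base words. In the coding sequence they are identical at 1567 of 1593 bases, and all 26 differences fall in the 858 coding bases of their first coding exon, which is exon 2 of both annotated transcripts. The stretch of 60 bases with the most differences, 9, is shown with the differing bases in capitals, from GENCODE vM21 transcripts on the plus strand (Ugt1a6a at chr1:88138769-88138828, Ugt1a6b at chr1:88107237-88107296, GRCm38).
Ugt1a6a: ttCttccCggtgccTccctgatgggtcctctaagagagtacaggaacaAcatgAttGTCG
Ugt1a6b: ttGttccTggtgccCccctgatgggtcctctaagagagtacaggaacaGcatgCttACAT
Reads that lie wholly in identical bases fit both copies, and those of the later exons can fit other Ugt1a members too. The value of each copy in a library therefore rests on few distinguishing bases, while the sum of the pair does not depend on how the reads were divided between the copies.

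**Figure D3:**
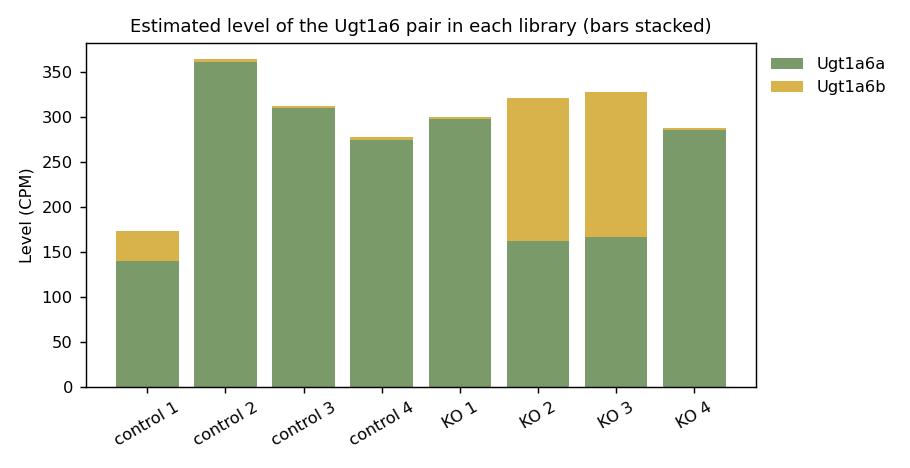
Stacked bars of the estimated level of Ugt1a6a (green) and Ugt1a6b (yellow) in CPM (y axis, from 0) in each of the 8 libraries. Ugt1a6b reaches 158 and 162 CPM in Ccna2-KO replicates 2 and 3, is 32.6 CPM in control replicate 1 and lies under 4 CPM elsewhere, while the total stays between 278 and 364 CPM in all libraries but control replicate 1.

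The genes around these families were read from a list of 100, of which 99 were in the table and 91 were tested. In all, 12 were higher and 2 lower at an edgeR adjusted p under 0.05, with a median log2 fold change of 0.10, against 6.4% and 5.71% of all genes. None of the 21 tested regulators passed edgeR's test, against 12.1% of all genes. In 0 of them did the groups not overlap, against 19.0% of all genes. At an unadjusted p under 0.05, 1 was higher and 5 lower. Limma voom called 0, and DESeq2 called 3 lower (Ahrr, Hnf4g and Ppara). With the set term edgeR called Bach1 higher. Without control replicate 1, where 28.5% of all genes were called, it called Nr1i3 higher and 8 lower, Ahr, Hnf4g and Ppara among them. Ahr, the dioxin receptor, ranged over 16.6 to 20.1 CPM in control and 13.0 to 18.4 CPM in Ccna2-KO, at -0.31 ± 0.13 (edgeR adjusted p = 0.167). Its repressor and target Ahrr had 58 counts in control and 15 in Ccna2-KO and was too low for edgeR's filter. Nr1i2, the pregnane X receptor, ranged over 104 to 120.1 CPM in control and 90.5 to 105 CPM in Ccna2-KO, at -0.19 ± 0.09. Nr1i3 ranged over 1.12 to 3.73 CPM in control and 2.46 to 5.33 CPM in Ccna2-KO, at 0.69 ± 0.38. Nfe2l2, which controls many antioxidant genes and is itself regulated mostly through protein stability, ranged over 313 to 514 CPM in control and 283 to 417 CPM in Ccna2-KO, at -0.28 ± 0.17 (edgeR adjusted p = 0.339).

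Of the 22 genes that supply electrons or cosubstrates, edgeR called 3 higher and 0 lower, against 6.4% and 5.71% of all genes. DESeq2 and limma voom also called 3 and 0, and 1 was lower at an unadjusted edgeR p under 0.05. With the replicate block edgeR called 0 of them. Without control replicate 1 it called 7 higher and 1 lower, in a fit that called 28.5% of all genes. Por, the P450 reductase, ranged over 198 to 273 CPM in control and 221 to 269 CPM in Ccna2-KO and overlapped, at 0.03 ± 0.13. Cyb5b, an outer mitochondrial cytochrome b5, ranged over 372 to 429.6 CPM in control and 529 to 594 CPM in Ccna2-KO (log2 change 0.46 ± 0.10, edgeR adjusted p 0.0198). Gclm, the modifier subunit of the first enzyme of glutathione synthesis, ranged over 74.0 to 93.8 CPM in control and 98.6 to 125 CPM in Ccna2-KO (0.41 ± 0.11, adjusted p = 0.0414). Chac1, which degrades glutathione, ranged over 0.767 to 1.30 CPM in control and 1.69 to 2 CPM in Ccna2-KO (0.87 ± 0.23, adjusted p = 0.0406). Groups were apart in these last 3 genes.

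Of 38 other enzymes tested, 7 were higher and 2 lower, against 6.4% and 5.71% of all genes. Akr1b8, an aldo-keto reductase with close paralogs whose reads it may share, was at 123, 81.3, 132 and 126 CPM in control and 283, 289.9, 299 and 338 CPM in Ccna2-KO, with groups apart at 1.39 ± 0.16 (edgeR adjusted p = 0.00116). Ephx1, the microsomal epoxide hydrolase, was at 17.6, 9.70, 9.93 and 9.39 CPM in control and 38.3, 44.3, 35.5 and 22.6 CPM in Ccna2-KO. Control replicate 1 was the highest control there, below every Ccna2-KO library, and the change was 1.59 ± 0.26 (adjusted p = 0.00561, edgeR). The carbonyl reductase Cbr3 changed by 0.83 ± 0.14, the quinone reductase Nqo1 by 0.48 ± 0.12, and the lysosomal enzyme Gusb, which splits glucuronides, by 1.12 ± 0.21, with edgeR adjusted p-values of 0.00653, 0.0279 and 0.00902. The histamine methyltransferase Hnmt fell, from 194 counts in control to 53 in Ccna2-KO (-1.93 ± 0.40, adjusted p = 0.0154), as did the formaldehyde-oxidizing dehydrogenase Adh5, with 88.6 to 109 CPM in control and 62.8 to 79.4 CPM in Ccna2-KO (-0.46 ± 0.11, adjusted p = 0.0253). Of 10 efflux transporters tested, 2 that export conjugates were higher and 0 were lower, against 6.4% and 5.71% of all genes. Abcc4 ranged over 4.61 to 8.61 CPM in control and 10.7 to 19.0 CPM in Ccna2-KO (1.38 ± 0.25, edgeR adjusted p = 0.00805). Abcc1 ranged over 33.7 to 45.4 CPM in control and 53.7 to 62.6 CPM in Ccna2-KO (0.58 ± 0.12, edgeR adjusted p = 0.0149). The antioxidant core TGACNNNGC was present in the upstream window of 2 of the 10 higher genes of this list that had a promoter entry, Abcc4 and Gclm. Without control replicate 1 this list gave 26 higher and 15 lower, in a fit that called 28.5% of all genes. Without any 1 other library it gave between 6 and 11 higher and at most 3 lower.

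**Figure D4:**
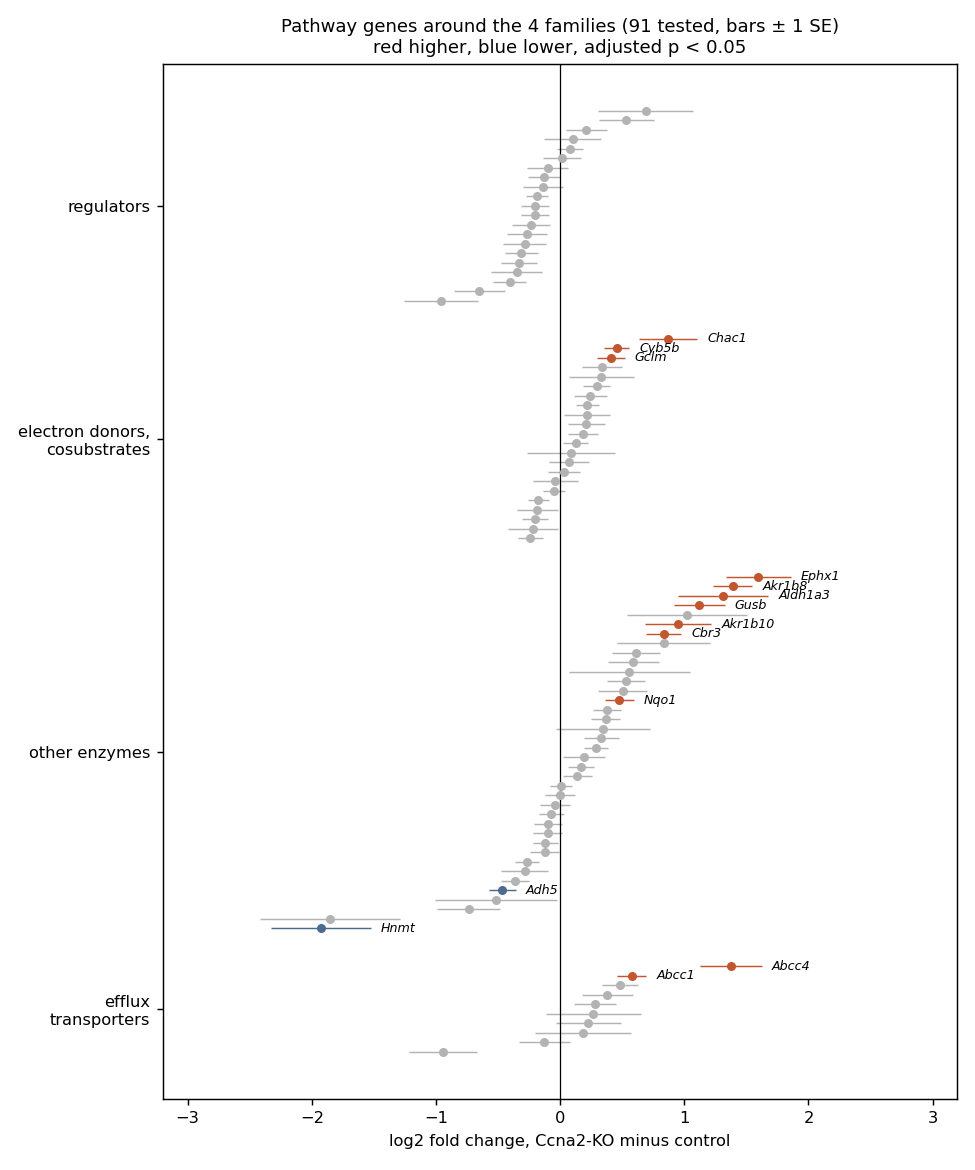
Fitted log2 fold change (x axis, Ccna2-KO minus control, bars 1 SE) of the 91 tested genes around the 4 families, ordered by value within each of 4 roles. Red genes were higher and blue genes lower at an adjusted p under 0.05. No regulator is coloured, and the 12 red genes are spread over the 3 other roles.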

How the data were processed

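RNA of colonic epithelial cells was sequenced in 8 libraries, 4 a group, with groups and replicate numbers taken from the labels. The authors deposited an estimated count for each RefSeq transcript, made with kallisto against mouse build GRCm38 (mm10), per the submitters' processing notes. Its version is not given in the sources. Kallisto divides reads that fit several transcripts between them. Whether the libraries mark strand is not given either, so reads of overlapping antisense genes cannot be told apart.

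The 107193 transcripts were summed per symbol and rounded. Transcripts without a symbol (687, with 3.19% to 5.51% of the counts) were left out. Library totals were 27162083 to 34386731 estimated counts, and precision at low levels is limited by counting error. The test was edgeR 4.0.16 (R 4.3.3) with filterByExpr, TMM, robust quasi-likelihood F tests of Ccna2-KO against control and Benjamini-Hochberg adjustment over 15893 genes at 0.05. The SE of an edgeR log2 fold change was computed as its absolute value divided by the square root of the F statistic. CPM uses TMM library sizes. On data simulated from these libraries (15628 genes), a log2 change of 1 was recovered in 46.9% of 98 genes and a log2 change of 2 in 92.7% of 96, with 4.3% false among calls.

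Word sharing was counted over 31 bases with GENCODE vM21 transcripts matched through RefSeq accessions, for 142 members. Members chained by sharing of 20% or more were summed in an alternative chosen after seeing the data. The text names every called member, the most abundant member of each class, 14 members set by name, 12 called pathway genes by adjusted p and 6 pathway genes set by name. The members, lists and rules were chosen with earlier results of these data known. Alternatives were other scalings, filters and tools (DESeq2 1.42.0, limma 3.58.1 voom), a replicate block, a library number set term, single transcripts and each library left out.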

Additional observations from a re-analysis of the deposited data

Results flagged for a closer look

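In 6 of 70 groups of 4 libraries, over named members and family sums, 1 library stood apart from the other 3 by more than Dixon's 95% critical value for the gap over the range. Chance alone flags about 1 group in 20. Control replicate 1 was that library in 3 of the 6. Gsta3 was at 13.8 CPM there, with the other controls at 5.71 to 6.33 CPM. Gstm4 was at 17.9 CPM there, with the others at 11.3 to 11.9 CPM. Ugt1a6b was at 32.6 CPM there, with the others at 1.32 to 3.73 CPM. That gene was singled out after its values were seen, so its flag is no support for these counts. Ccna2-KO replicate 4 had Cyp2s1 at 451 CPM, with 348 to 359.6 CPM in the others of its group. Ccna2-KO replicate 3 had Gstp1 at 354 CPM, with 300.1 to 306 CPM in the others. Ccna2-KO replicate 2 had Cyp3a25 at 0.36 CPM, with 0.2 to 0.22 CPM in the others, a few counts a library.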

How the results depend on the processing

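Of the 17 called members, 14 stayed called under every alternative on gene totals that gave them a value, and 0 of their 269 values there changed sign. The exceptions were Gsta1, Gstm4 and Sult1d1, with the values given above. On single transcripts, of which 0.93% passed over all genes, 11 of the 17 were not called. Among the 11, Cyp4v3, Gsta1, Sult1d1 and Ugt2b5 have 1 transcript each, so their counts were the same in both fits. Members higher numbered 4 with single transcripts and between 5 and 16 with 1 library left out, and members lower 3 with single transcripts and between 10 and 17. Control replicate 1 was the library left out at 16 and 17. DESeq2 called 10 higher and 12 lower. Pathway genes higher numbered 2 with single transcripts and 6 to 26 with 1 library left out. Pathway genes lower numbered 4 without a filter, 9 with DESeq2, 4 with the library number set term, 1 with single transcripts and 0 to 15 with 1 library left out, the 0 without Ccna2-KO replicate 3. The same-numbered libraries did not pair (correlations of deviations -0.07, -0.35, -0.26 and 0.15), so the replicate block adds a number and no known pairing. With the block, 6 members were higher and 9 lower, and 5 pathway genes were higher and 2 lower. The cause of these shifts was not tested. The 4 family sums kept their sign under all scalings and with any library left out, with log2 ratios of 0.05 to 0.26 for Cyp, -0.30 to -0.10 for Ugt, -0.55 to -0.48 for Sult and 0.24 to 0.42 for Gst.

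Among named members not called, 9 values changed sign. With the library number set as a term the log2 fold change of Gstk1 was 0.043, of Ugt2b34 0.15 and of Ugt1a6a 0.21. With 1 library left out, Cyp2c55 ran from -0.0093 (without control replicate 1) to 0.28, Gstk1 from -0.11 to 0.061, Sult2b1 from -0.062 to 0.12 and Ugt2b34 from -0.14 to 0.045. Depth limits the 72 members below edgeR's filter, of which DESeq2 tested some (86 members in all), and the Ccna2-KO values of Cyp3a44, Cyp3a25 and Cyp2r1.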
